A study of Mus musculus with 22 samples.

Results

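Transcripts of the mitochondrial ribosomal proteins were followed through the day in livers that lack adiponectin. Members were all features of the array whose annotated gene symbol is Mrpl or Mrps followed by a number and at most 1 letter, which gave 76 of 22206 features, 1 per gene. By background knowledge 50 of them are proteins of the large subunit and 25 of the small subunit. The last, Mrps36, is now known as a component of the α-ketoglutarate dehydrogenase complex and was kept because the rule selects by symbol. Of the 75 ribosomal members, 45 were classed as having a counterpart in bacterial ribosomes and 30 as mitochondrial only, Mrps18a and Mrps18b among the latter. Mrps18a and Mrps30 were counted in the large subunit despite their names.

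The mitochondrial ribosome translates the few messages encoded by mitochondrial DNA, all of which are core subunits of the respiratory chain and the ATP synthase. Its RNA is made inside the organelle, whereas all of its proteins are encoded in the nucleus, translated in the cytosol and imported. Liver depends on this supply of respiratory chain subunits for gluconeogenesis, fatty acid oxidation and urea synthesis, which change with feeding and time of day.

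The samples were 22 livers from male mice with, per the genotype label, a global knockout of adiponectin (strain B6;129-Adipoqtm1Chan/J on a C57BL/6J background), between 3 and 8 months old. Lights were on for 12 h, starting at zeitgeber time 0 (ZT0), and chow was always available. Livers were taken at ZT2 (n = 4), ZT6 (n = 3) and ZT10 (n = 4) in the light, and at ZT14 (n = 4), ZT18 (n = 3) and ZT22 (n = 4) in the dark. All groups share the deletion, which is not limited to a cell type or time, and wild-type mice were not analysed here. Whether a difference below depends on the loss of adiponectin therefore cannot be told. RNA of each liver was hybridised to 1 Clariom S array, and letters a to d name the arrays of a time.

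Levels are log2 values per array. The feature for Adipoq, the deleted gene, read 3.30 to 4.69 in the 22 arrays, where the lower quartile of an array lay between 3.67 and 3.91 and a level cannot be told from background. The mean level of the hepatocyte markers ran from 19.03 to 19.16 over the 6 times, and 0 of 6 measured ones passed the 24 h test described below. Alb, Apoa1 and Ttr read 19.44 to 19.87 in all arrays, where the upper quartile of an array lay between 8.24 and 8.49. Whether features this bright can show a change was not tested, so their flatness is not read as a constant share of hepatocytes. Tff3, a secreted peptide of mucous epithelia, read 10.35 to 13.63 in 5 arrays (ZT6b, ZT6c, ZT14b, ZT14d and ZT22a) and 2.31 to 4.73 in the other 17, so these 5 arrays stood apart and results are also given without them. The tissue is whole liver, in which fewer cells of a type and less RNA per cell cannot be told apart.

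Mean levels of the members ran from 4.17 for Mrpl54, the one closest to background, to 12.42 for Mrpl42, and 74 of 76 lay above the median feature (5.29). Because probes differ in brightness, these levels set no order between genes. Through the day the members moved little. The distance from the lowest to the highest time mean had a median of 0.49 on the log2 scale, with 0.12 for Mrps18c at the low end and 0.99 (1.99-fold) for Mrps21 at the high end, and 0 members reached 1. The SD between arrays of the same time had a median of 0.28 and ranged from 0.14 to 0.43. The heat map shows the time means of all members.

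**Figure D1:**
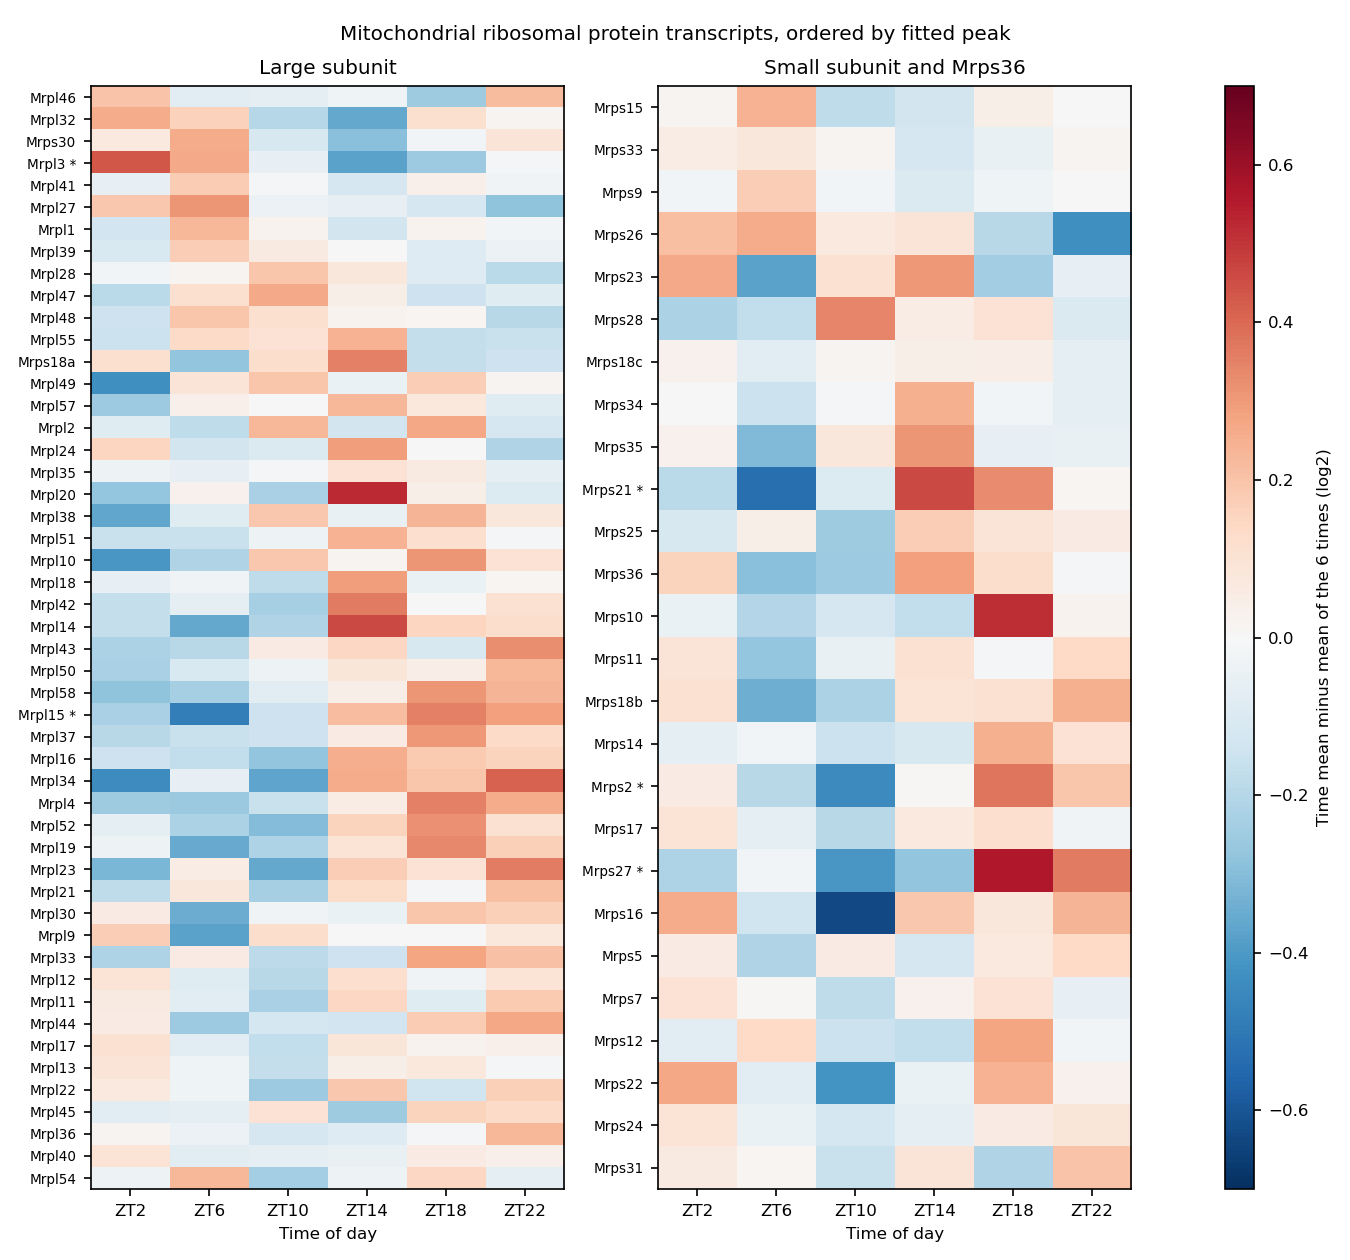
Mean log2 level of each of the 76 members at the 6 times, as the difference from the member's own mean over times (blue low, red high); an asterisk marks an adjusted p under 0.05 in the 24 h test. Of the 76 rows, 23 have their lowest mean at ZT10 and 21 at ZT6, while 19 have their highest at ZT14 and 19 at ZT18.

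A 24 h rhythm was tested with a cosine and a sine fitted across all arrays in limma, and adjusted p-values (Benjamini-Hochberg over all 22206 features, threshold 0.05) are from that fit. Of the 76 members, 5 passed: Mrpl15, Mrps21, Mrpl3, Mrps2 and Mrps27. That is 6.58%, against 7.62% of all features and 13.6% of the features above the median level, where 74 of the members lie, so the share of rhythmic members was not above the background. At an unadjusted p under 0.05 there were 23 members (30.3%), against 21.1% of all features and 32.3% of those above the median level. The median fitted amplitude was 0.16, a span from trough to peak of 1.25-fold, and all features also had a median amplitude of 0.16.

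Mrpl15, a large-subunit protein with a bacterial counterpart, had the lowest p. It read 9.39, 8.94, 9.38 and 8.79 at ZT2, 8.94, 8.53 and 9.10 at ZT6, and 9.28, 9.27, 8.94 and 9.33 at ZT10. In the dark it read 9.43, 9.49, 9.65 and 9.69 at ZT14, 9.99, 9.60 and 9.50 at ZT18, and 9.91, 9.37, 9.95 and 9.30 at ZT22. The 11 light arrays lay low and the 11 dark arrays high, with an overlap in which 3 light arrays exceeded the lowest dark one. The fitted peak was at ZT18.0 ± 0.693 h (SE) with an amplitude of 0.43 ± 0.08 and a span of 1.80-fold (adjusted p = 0.0047). Without the 5 Tff3-high arrays the amplitude was 0.37 and the adjusted p 0.0597.

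Mrps21 is a small-subunit protein related to bacterial S21. It read 10.27, 10.20, 9.96 and 10.02 at ZT2, 10.03, 9.07 and 10.20 at ZT6, and 10.33, 10.43, 9.82 and 10.20 at ZT10. Dark readings were 10.58, 10.88, 10.64 and 10.93 at ZT14, 10.53, 10.62 and 10.75 at ZT18, and 10.71, 10.34, 9.83 and 10.36 at ZT22. All arrays of ZT14 and ZT18 lay above all light arrays, whereas ZT22 overlapped the light times. The single lowest reading, 9.07, was in ZT6b, a Tff3-high array. The peak was fitted at ZT16.6 ± 0.778 h with an amplitude of 0.44 ± 0.10 (1.84-fold, adjusted p = 0.0109), and without the Tff3-high arrays the amplitude was 0.31 and the adjusted p 0.101.

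Mrpl3, whose bacterial relative lies next to the peptidyl transferase centre of the large subunit, was the one called member with a peak in the light. It read 9.29, 9.0, 9.05 and 9.08 at ZT2, 9.17, 8.80 and 8.86 at ZT6, and 8.63, 8.83, 8.30 and 8.70 at ZT10. From ZT14 on it read 8.70, 7.91, 8.68 and 7.91 at ZT14, 8.77, 8.28 and 8.21 at ZT18, and 9.31, 8.11, 8.66 and 8.61 at ZT22. The arrays of ZT2 lay above all arrays of ZT10, ZT14 and ZT18, but ZT22a, a Tff3-high array, held the highest reading of all. The 7.91 readings at ZT14 were both in Tff3-high arrays. The peak was fitted at ZT3.39 ± 0.904 h with an amplitude of 0.39 ± 0.10 (1.73-fold, adjusted p = 0.0236), and without those arrays the amplitude was 0.35 and the adjusted p 0.101.

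Mrps2, a small-subunit protein with a bacterial counterpart, peaked late in the dark. It read 9.67, 9.94, 9.23 and 9.44 at ZT2, 9.15, 9.52 and 9.28 at ZT6, and 8.75, 9.01, 9.14 and 9.38 at ZT10. In the dark it read 9.23, 9.22, 10.06 and 9.55 at ZT14, 9.85, 9.74 and 10.07 at ZT18, and 9.93, 9.53, 9.92 and 9.48 at ZT22. All ZT18 and ZT22 arrays lay above all ZT10 arrays, while ZT2 and ZT14 overlapped both. The fit gave a peak at ZT20.3 ± 0.921 h and an amplitude of 0.35 ± 0.09 (1.63-fold, adjusted p = 0.0298); without the Tff3-high arrays the amplitude was 0.39 and the adjusted p 0.0625.

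Mrps27, a small-subunit protein found only in mitochondria and built of pentatricopeptide repeats, had nearly the same fitted peak. It read 8.07, 8.14, 8.74 and 8.14 at ZT2, 8.35, 8.46 and 8.59 at ZT6, and 7.95, 7.82, 7.97 and 8.57 at ZT10. Readings in the dark were 8.38, 7.72, 8.41 and 8.32 at ZT14, 8.75, 9.15 and 9.24 at ZT18, and 9.22, 8.85, 8.76 and 8.55 at ZT22. All 3 arrays of ZT18 exceeded every array before them in the day, and ZT22 lay above most of them. The ZT14 arrays read within the light range or, in ZT14b, below it. The peak was fitted at ZT20.5 ± 0.971 h with an amplitude of 0.40 ± 0.10 (1.73-fold, adjusted p = 0.0399). It was the one member that also passed without the Tff3-high arrays (amplitude 0.47, adjusted p = 0.0173).

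**Figure D2:**
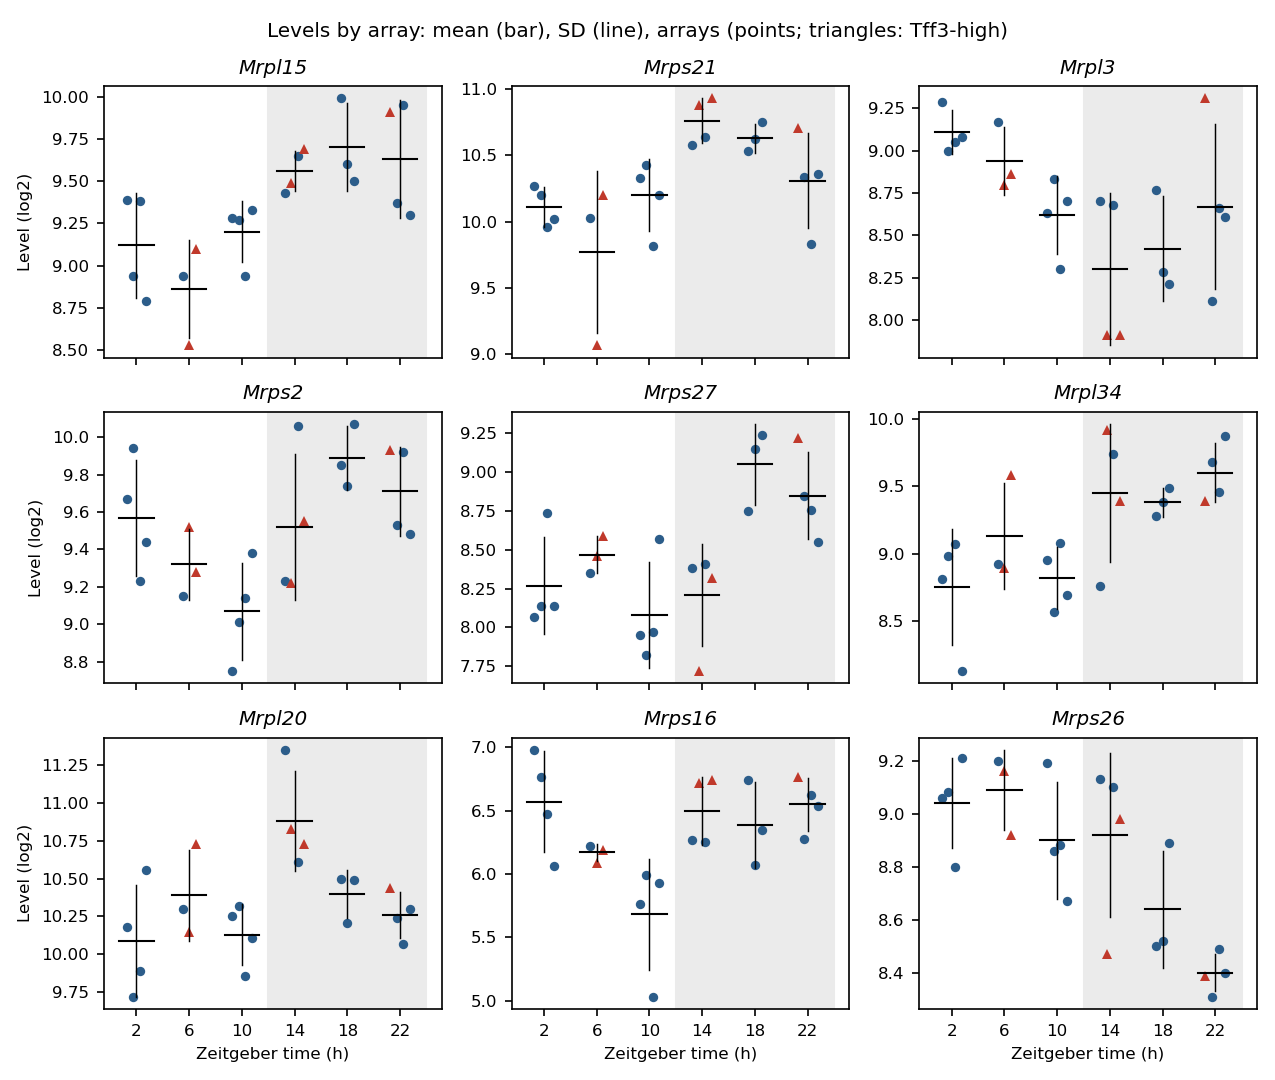
Log2 level of members in each of the 22 arrays against zeitgeber time in hours, with time means as lines and Tff3-high arrays as triangles. Mrpl15 is low in the light and high in the dark. Mrps21 is high at ZT14 and ZT18, while ZT22 overlaps the light times. Mrpl3 runs from 9.11 at ZT2 to 8.30 at ZT14, and Mrps27 is high at ZT18 (9.05) and ZT22 (8.85).

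How firmly these calls stand differed between members. With each of the 22 arrays left out in turn, Mrpl15 stayed between adjusted p = 0.00461 and 0.0172 and Mrps21 between 0.00626 and 0.0248. Mrpl3 lost its call without ZT2a, ZT14b or ZT14d (highest adjusted p 0.0617). Mrps2 lost it without ZT10a, ZT10b, ZT10c, ZT18a, ZT18c, ZT22a or ZT22c (up to 0.0743). Mrps27 lost it without any 1 of 11 arrays: ZT10a to ZT10c, ZT14c, ZT14d and all of ZT18, and ZT22a to ZT22c (up to 0.0883). After quantile normalization the adjusted p of Mrps27 was 0.0684, and the other 4 members still passed (0.00537 to 0.0396). Leaving out a whole time ended each of these calls at least once: that of Mrpl15 without ZT6 (0.0574), of Mrps21 without ZT14 (0.121), of Mrpl3 without any time but ZT22 (0.0511 to 0.234), and of Mrps2 and Mrps27 without ZT10, ZT18 or ZT22 (0.0649 to 0.294 and 0.198 to 0.234). Among the members named with values by array, Mrpl34 passed without ZT6 (0.0363), Mrps16 without ZT14 (0.0179) and Mrpl20, just under the threshold, without ZT10 (0.05 as rounded).

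Just outside the threshold were Mrpl19 (adjusted p = 0.0715, peak ZT18.9) and Mrpl4 (0.0733, ZT18.4), both of the large subunit, against Mrps2 and Mrps27 just inside. The largest amplitudes among members not called were 0.37 for Mrpl34 (adjusted p = 0.112), 0.36 for Mrps16 (0.084) and 0.36 for Mrpl14 (0.157). Mrpl14 was the 1 member higher in the Tff3-high arrays than in the others of its time at all 3 times that hold them. It read 7.93, 7.70 and 7.80 in ZT14b, ZT14d and ZT22a, and without the Tff3-high arrays its amplitude was 0.22 (adjusted p = 0.426). Mrps18a was the 1 member lower in the Tff3-high arrays at all 3 times. The share of all features set apart in this way was not counted, so neither is read as a trait of its gene. At the other end, the fitted amplitudes were 0.03 ± 0.08 for Mrps18c, 0.05 ± 0.08 for Mrpl54 and 0.06 ± 0.12 for Mrpl41, each smaller than its standard error, and their fitted peaks are not read singly. The paralogs Mrps18a, Mrps18b and Mrps18c, 3 nuclear genes related to 1 bacterial protein, had adjusted p-values of 0.649, 0.115 and 0.961. Only Mrps18c was classed as its counterpart. By subunit, 2 of 50 large-subunit (4%) and 3 of 25 small-subunit members (12%) passed. By origin it was 4 of 45 with a bacterial counterpart (8.89%) and 1 of 30 classed as mitochondrial only (3.33%). Over all features 7.62% passed, and 13.6% of those above the median level, so none of these groups exceeded the latter. These shares were not tested against each other.

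Promoter sequences are shown for the called members, to set side by side what genes with different peaks carry just upstream. RefSeq windows on GRCm38.p6, from 250 bases before to 50 after the annotated start, were matched for 67 of 76 members, and these are in lower case with motif matches on either strand in capitals. Mrps21 is at chr3:95871465-95871764 (minus strand), Mrpl3 at chr9:105053018-105053317 (plus), Mrps2 at chr2:28467816-28468115 (plus) and Mrps27 at chr13:99344536-99344835 (plus). The table used holds no entry for Mrpl15.
Mrps21: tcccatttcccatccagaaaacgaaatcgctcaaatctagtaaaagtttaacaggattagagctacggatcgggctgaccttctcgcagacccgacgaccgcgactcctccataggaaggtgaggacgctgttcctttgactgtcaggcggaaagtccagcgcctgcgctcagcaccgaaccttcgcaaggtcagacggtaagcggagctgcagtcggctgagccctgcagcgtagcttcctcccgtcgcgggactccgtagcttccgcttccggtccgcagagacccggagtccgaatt
Mrpl3: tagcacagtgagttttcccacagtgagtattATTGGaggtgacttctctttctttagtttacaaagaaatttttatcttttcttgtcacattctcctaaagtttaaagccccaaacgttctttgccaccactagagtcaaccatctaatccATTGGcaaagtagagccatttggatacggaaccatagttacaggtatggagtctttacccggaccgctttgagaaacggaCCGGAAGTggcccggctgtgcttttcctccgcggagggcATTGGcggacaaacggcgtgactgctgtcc
Mrps2: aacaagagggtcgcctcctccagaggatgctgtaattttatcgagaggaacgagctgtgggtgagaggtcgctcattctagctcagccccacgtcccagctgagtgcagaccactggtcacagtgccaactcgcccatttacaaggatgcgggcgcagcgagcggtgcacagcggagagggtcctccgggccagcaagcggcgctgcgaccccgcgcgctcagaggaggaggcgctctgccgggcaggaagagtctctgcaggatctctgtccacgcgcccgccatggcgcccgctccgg
Mrps27: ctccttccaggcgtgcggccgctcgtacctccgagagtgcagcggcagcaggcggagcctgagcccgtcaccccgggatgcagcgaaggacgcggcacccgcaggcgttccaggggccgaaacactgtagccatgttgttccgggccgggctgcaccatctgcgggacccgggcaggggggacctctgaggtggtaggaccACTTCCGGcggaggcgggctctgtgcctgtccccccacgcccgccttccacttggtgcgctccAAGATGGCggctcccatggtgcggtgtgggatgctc

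The motifs searched were GCGCATGC (NRF1), CCGGAAGT (ETS factors such as GABP), AAGATGGC (YY1), CACGTG (the E-box of the clock factors) and CCAAT, each on both strands. Mrpl3 has an ETS match 19 bases before its start and 3 CCAAT matches. Mrps27 has an ETS match 49 bases before its start and a YY1 match 14 bases after it, where the windows of Mrps21 and Mrps2 have none of the 5 motifs. Among the 67 member windows, 12 (17.9%) held the ETS motif against 5.88% of all 15691 promoters, 12 (17.9%) the YY1 motif against 3.64%, and 8 (11.9%) the NRF1 motif against 4.10%. The E-box was in 5 (7.46%) against 9.26%, and CCAAT in 26 (38.8%) against 42.2%. The median GC content was 58.0% in members and 57.0% in all promoters. A match is a description of letters and not a measured site.

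The timing of the fitted peaks was lopsided even though few members were called. Of the 76 members, 60 (78.9%) had their fitted peak between ZT12 and ZT24, against 47.8% of all features and 57.6% of those above the median level. Every fitted peak was counted, however loosely its time was set. Mrps18c (ZT14.6 ± 8.82 h, SE) and Mrpl54 (ZT23.3 ± 7.12 h) thus count in the dark, and Mrpl41 (ZT5.04 ± 7.23 h) in the light. By 4 h window from ZT0, the peaks of 6, 5, 5, 15, 22 and 23 members fell in each. The highest time mean was at ZT14 in 19 members, at ZT18 in 19 and at ZT22 in 13, while the lowest was at ZT2 in 15, at ZT6 in 21 and at ZT10 in 23. The members share libraries, so these counts describe the 22 livers and carry no test. Without the Tff3-high arrays 52 members peaked in the dark, and the share of all features that did so was not set beside this count.

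**Figure D3:**
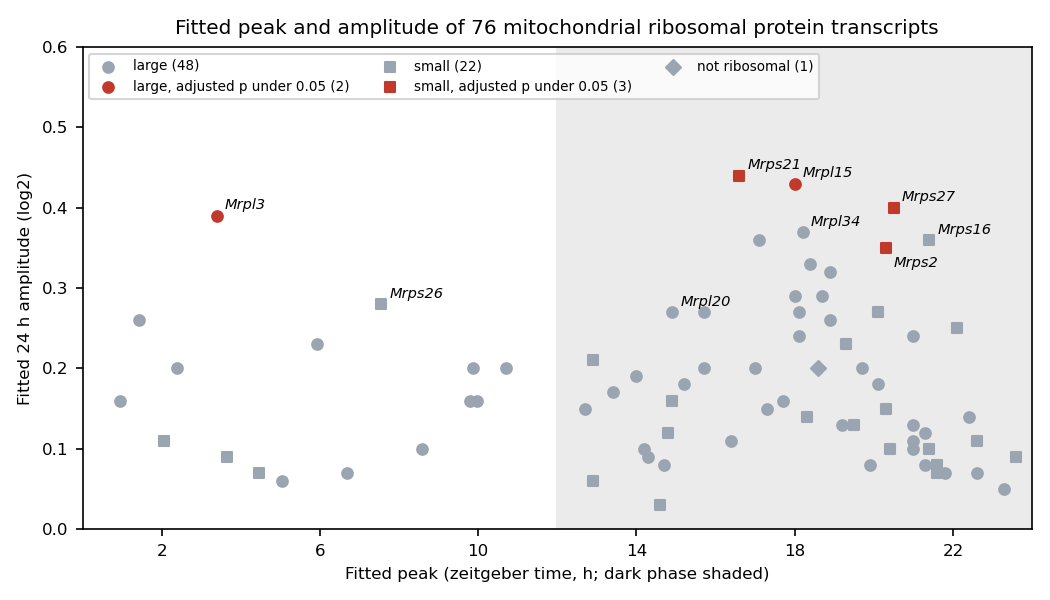
Fitted 24 h amplitude (log2) against fitted peak (zeitgeber time, h) for the 76 members, with the dark phase shaded and members with an adjusted p under 0.05 in red. Most points lie in the dark phase at amplitudes under 0.40, and Mrpl3 at ZT3.39 is the one red point in the light.

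The light and dark phases were compared directly with the average of the 3 light times set against that of the 3 dark times. Of the members, 4 were higher in the dark (3.25% of all features were) and 1 was higher in the light (2.02% of all features). Among the 11103 features above the median level, where 74 of the members lie, 672 were higher in the dark and 355 in the light. Mrpl15 fell by 0.57 ± 0.12 from dark to light (SE, dark 1.48-fold higher, limma adjusted p = 0.00478) and Mrps21 fell by 0.54 ± 0.13 (1.46-fold, 0.016). Mrps27 had a difference of -0.43 ± 0.13 (1.34-fold, 0.0498), at the edge of the threshold. The median difference over the 76 members was -0.11, and 60 of them were below 0, against a median of 0.01 over all features (47.5% below 0) and -0.04 over features above the median level (57.8% below 0).

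Mrpl34, a small large-subunit protein with a bacterial counterpart, had the largest difference in this comparison. It read 8.81, 8.98, 9.07 and 8.13 at ZT2, 8.92, 8.89 and 9.58 at ZT6, and 8.95, 8.57, 9.08 and 8.69 at ZT10. After lights off it read 8.76, 9.92, 9.74 and 9.39 at ZT14, 9.28, 9.38 and 9.49 at ZT18, and 9.39, 9.68, 9.46 and 9.87 at ZT22. Apart from ZT14a in the dark and ZT6c in the light, the light arrays lay below the dark ones. The difference was -0.58 ± 0.14 (dark 1.49-fold higher, adjusted p = 0.0184).

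Mrps26, a mitochondria-specific protein of the small subunit, was the member called higher in the light, and it was picked out after its values were seen. It read 9.06, 9.08, 8.80 and 9.21 at ZT2, 9.20, 9.16 and 8.92 at ZT6, and 9.19, 8.86, 8.88 and 8.67 at ZT10. In the dark it read 9.13, 8.47, 9.10 and 8.98 at ZT14, 8.5, 8.52 and 8.89 at ZT18, and 8.39, 8.31, 8.49 and 8.4 at ZT22. The arrays of ZT22 lay below every light array, whereas 3 of the 4 arrays of ZT14 read as high as the light ones. The difference was 0.36 ± 0.10 (light 1.28-fold higher, adjusted p = 0.0442).

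Without the 5 Tff3-high arrays, 0 of the members passed in limma, against 2.78% of all features. At an unadjusted p under 0.05 there were 16 members, and the share of all features at that level was not counted. The sizes stayed near: -0.50 ± 0.15 for Mrpl15 (adjusted p = 0.0789), -0.60 ± 0.17 for Mrpl34 (0.0678), -0.49 ± 0.15 for Mrps27 (0.0903) and 0.33 ± 0.13 for Mrps26 (0.18). Mrps21 was smaller, at -0.36 ± 0.13 (0.165). With each array left out in turn, Mrpl15, Mrps21 and Mrpl34 passed in all 22 fits (highest adjusted p 0.0171, 0.0383 and 0.0429), whereas Mrps27 lost its call in 17 fits (up to 0.11, without ZT18c) and Mrps26 in 16 (up to 0.0966, without ZT18b). Without the Tff3-high arrays the median over members was -0.09 and 49 were below 0, and 63 of 76 kept the sign they had with all arrays. The share of all features below 0 without those arrays was not set beside these counts.

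The same lean was seen in other large sets of genes for protein synthesis and respiration. Cytosolic ribosomal proteins had a median difference of -0.13 with 45 of 56 below 0, and nuclear genes of the respiratory chain and ATP synthase had -0.14 with 61 of 75 below 0. Counts of called genes in the dark direction were 2 of 56 and 6 of 75, against 3.25% of all features and 672 of the 11103 features above the median level. The sets were not tested against each other.

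**Figure D4:**
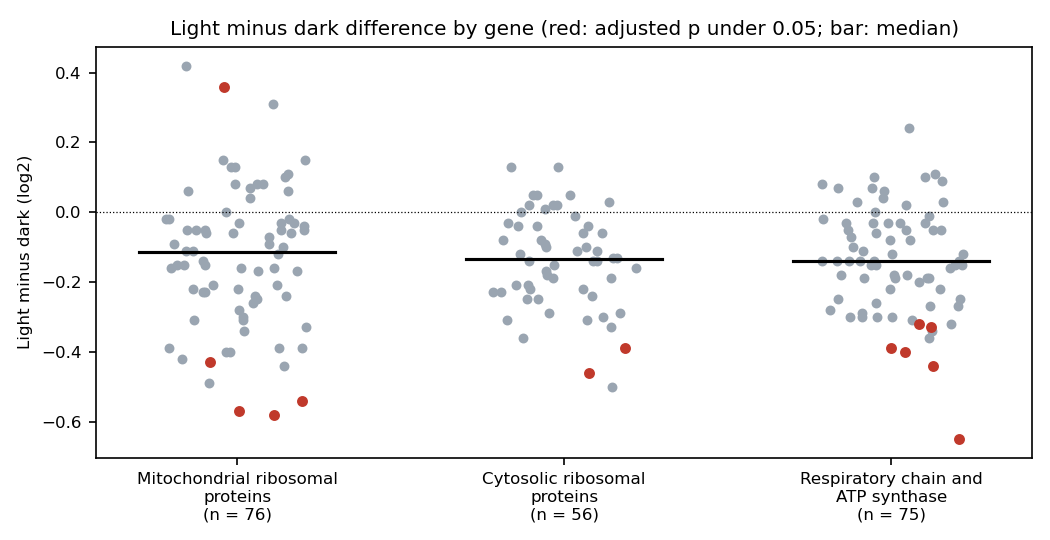
Light minus dark difference (log2) of each gene in 3 sets, with adjusted p under 0.05 in red and the median as a bar. The medians are -0.11, -0.13 and -0.14, and single members spread from -0.58 for Mrpl34 to 0.42 for Mrpl3, which was not called (adjusted p = 0.0803).

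The lean was also looked at array by array. The members' median in each array, relative to each member's own mean, averaged -0.04, -0.06 and -0.09 at ZT2, ZT6 and ZT10, and 0.05, 0.07 and 0.07 at ZT14, ZT18 and ZT22, with SDs of 0.04 to 0.15 within a time (pooled 0.10). It was lowest in ZT10c (-0.24, with 19 of 76 members above their own mean) and highest in ZT22a (0.29, 63 of 76), a Tff3-high array. The brightness of the whole array differed too. The upper quartile of all features averaged 8.34 at each light time and 8.39 to 8.4 at the dark times, and was lowest in ZT2d (8.24), ZT14a (8.25) and ZT10c (8.27), where the members' medians were -0.17, -0.09 and -0.24. It was highest in ZT14b (8.49), ZT14d (8.46) and ZT22a (8.45), all Tff3-high, where the members' medians were 0.11, 0.06 and 0.29. Some arrays departed from this order. ZT22b, next lowest at 8.29, had a member median of -0.03, and ZT2b and ZT22c, at 8.39 and 8.42, had -0.08 and -0.01. How much of the lean goes with brightness was not tested. With arrays forced to 1 common distribution by quantile normalization, the median light minus dark difference was -0.08 and 50 of 76 members were below 0. With the deposited values these were -0.11 and 60 of 76. The share of all features below 0 after this normalization was not set beside the count, so how much of the lean stands out from the background there is not shown.

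**Figure D5:**
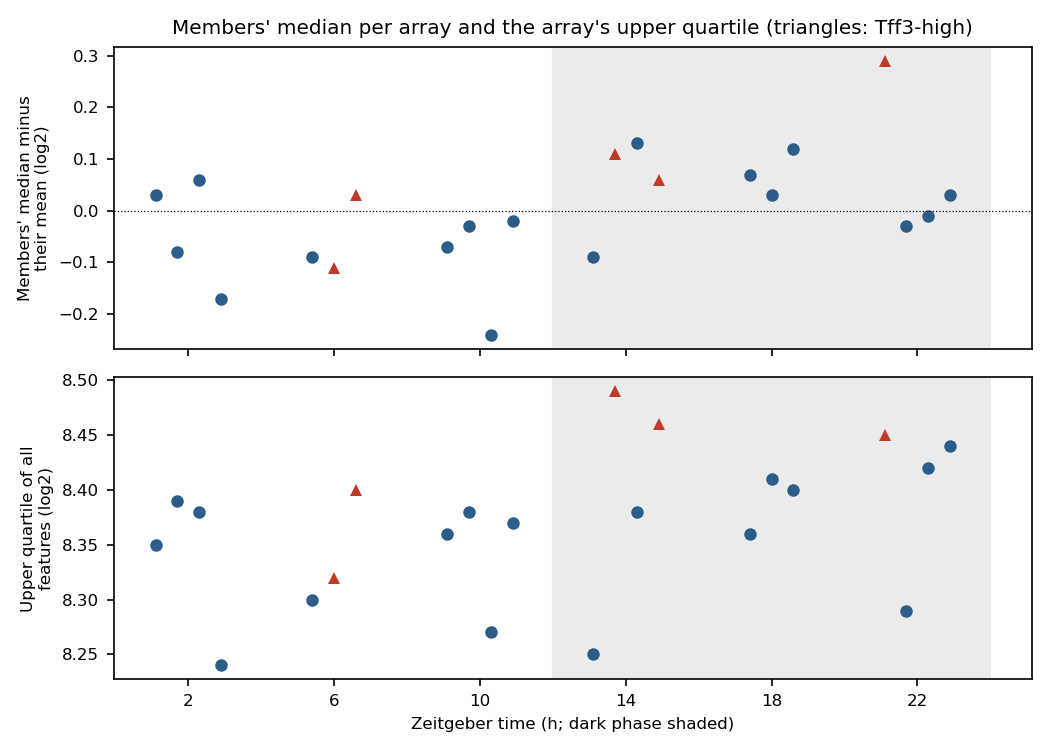
Median deviation of the 76 members from their own means (log2, upper panel) and the upper quartile of all features (log2, lower panel) in each of the 22 arrays against zeitgeber time, with Tff3-high arrays as triangles. ZT10c is low and ZT22a high in the upper panel, and the arrays with the lowest upper quartile, ZT2d and ZT14a, have member medians of -0.17 and -0.09.

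Variation from liver to liver was compared between members. After removal of time means, the correlation between pairs of members over 22 arrays had a median of 0.12 (2850 pairs, quartiles -0.08 and 0.31), and 0.05 after quantile normalization. For cytosolic ribosomal proteins the medians were 0.32 and 0.23, and for the respiratory chain and ATP synthase 0.16 and 0.17. These are descriptions, since all pairs share the same arrays and their brightness.

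Any difference among the 6 times, tested without assuming a shape, was called in 2 members, Mrps27 (limma adjusted p = 0.0234) and Mrpl15 (0.0498), against 6.14% of all features. Of the 11103 features above the median level, 1238 were called. Mrpl15 lost that call in 17 of 22 fits that left out 1 array (up to 0.126, without ZT6b), and Mrps27 without ZT18b or ZT18c (up to 0.0792). Comparisons between times 12 h apart called few members. From ZT2 to ZT14 the called members were Mrpl20 and Mrpl3, against 4.27% of all features. Mrpl20, a large-subunit protein whose bacterial relative is needed early in assembly, read 10.18, 9.72, 9.89 and 10.56 at ZT2 and 11.35, 10.83, 10.61 and 10.73 at ZT14. The ranges did not overlap, but ZT6 (10.30, 10.15 and 10.73) reached into that of ZT14, and ZT10 (10.25, 10.32, 9.86 and 10.11), ZT18 (10.50, 10.21 and 10.49) and ZT22 (10.44, 10.24, 10.07 and 10.30) lay with ZT2. The highest time mean was 10.88 ± 0.33 (SD, n = 4) at ZT14, and the ZT2 minus ZT14 difference was -0.79 ± 0.20 (adjusted p = 0.0204).

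Mrpl3 differed the other way, by 0.80 ± 0.23 (adjusted p = 0.0458), with all ZT2 arrays above all ZT14 arrays. Without the Tff3-high arrays, which leave ZT14a and ZT14c at 8.70 and 8.68, its difference was 0.42 (adjusted p = 0.456), while that of Mrpl20 was -0.89 (0.0675). With single arrays left out, Mrpl3 lost its call in 14 of 22 fits (up to 0.176, without ZT14b) and Mrpl20 without ZT2b, ZT2c or ZT14a (up to 0.0808). The median ZT2 minus ZT14 difference over members was -0.05.

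Between ZT6 and ZT18, 0 members passed in limma, against 1.13% of all features, and the lowest adjusted p was 0.0673 for Mrpl15 (-0.84 ± 0.23). At an unadjusted p under 0.05 there were 10 members, and the share of all features at that level was not counted. The median over members was -0.12. Both groups have 3 arrays, and 2 of those at ZT6 were Tff3-high.

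From ZT10 to ZT22, 2 members passed, Mrps16 and Mrps27, against 3.3% of all features. Mrps16, a small-subunit protein with a bacterial counterpart, read 6.98, 6.77, 6.47 and 6.06 at ZT2, 6.22, 6.09 and 6.19 at ZT6, and 5.76, 5.99, 5.03 and 5.93 at ZT10. At the dark times it read 6.27, 6.72, 6.25 and 6.74 at ZT14, 6.74, 6.07 and 6.35 at ZT18, and 6.77, 6.28, 6.62 and 6.54 at ZT22. All ZT10 arrays lay below every other array, with ZT10c lowest, and the other times overlapped. The ZT10 minus ZT22 difference was -0.88 ± 0.22 for Mrps16 (adjusted p = 0.0262) and -0.77 ± 0.21 for Mrps27 (0.0402). Mrps16 lost its call without ZT10c (0.124), ZT22a, ZT22c or ZT22d, and Mrps27 without any of ZT10a to ZT10c, ZT18b and ZT22a to ZT22c (up to 0.147) or after quantile normalization (0.0682); without the Tff3-high arrays the values were -0.80 (0.0899) and -0.64 (0.121). The median over members was -0.17.

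Genes that act with the mitochondrial ribosome were taken from lists drawn up for it. The 24 h test called 7.62% of all features and 13.6% of those above the median level. All list counts here and in the next paragraph are small and were not tested against these shares. Of 4 measured ribosomal proteins that carry other names (Dap3, Ptcd3, Chchd1 and Gadd45gip1), 0 passed the 24 h test in limma and 0 had an unadjusted p under 0.05. Of 26 assembly and rRNA modification factors 2 passed. Noa1, a GTPase needed for assembly, peaked at ZT17.3 (span 1.81-fold, adjusted p = 0.0031) and Mrm2, a methyltransferase of the large-subunit RNA, at ZT20.4 (1.62-fold, 0.043), while Mettl17 had an adjusted p of 0.051. Of 15 translation factors 1 passed, the release factor relative Mtrf1 (peak ZT17.9, 1.90-fold, 0.00814), with Gfm2 at 0.0525 and Mtif2 at 0.0635. Both Noa1 and Mtrf1 were also higher in the dark, by light minus dark differences of -0.56 (adjusted p = 0.00253) and -0.66 (0.00255).

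Of 16 mitochondrial tRNA synthetases 0 passed the 24 h test in limma, and the lowest adjusted p-values were 0.165 for Tars2, 0.198 for Rars2 and 0.332 for Cars2. Of 9 genes of mitochondrial transcription and replication 2 passed, with peaks in opposite phases. Mterf2, of the mitochondrial transcription termination factor family, peaked at ZT20.5 (2.03-fold, adjusted p = 0.0115) and Polg, the catalytic subunit of the DNA polymerase, at ZT5.74 (1.5-fold, 0.0272), while Twnk had an adjusted p of 0.0892. Of 8 regulators 1 passed, Gabpb1, a subunit of the ETS factor GABP, which peaked at ZT3.61 (1.93-fold, 0.00487). Links between the regulators and the members were not tested. Yy1 and Ppargc1b did not pass (0.0558 and 0.0568). Gabpa, the DNA-binding subunit of GABP, was higher in the light by 0.37 (adjusted p = 0.0294) and was picked out after its values were seen. In the same limma comparison of light and dark, Gabpb1 (0.49, adjusted p = 0.0265) and Polg (0.37, 0.0256) were higher in the light. Mterf2 was higher in the dark (-0.55, 0.0413). Without the Tff3-high arrays Gabpb1, Mtrf1 and Mterf2 passed the 24 h test (adjusted p = 0.0379, 0.0247 and 0.0255), and Noa1, Mrm2 and Polg did not (0.0744, 0.0713 and 0.225). With single arrays left out, Mrm2 lost its call in 16 of 22 fits (up to 0.105, without ZT10b) and Polg without any 1 of ZT6a, ZT6b, ZT6c, ZT18a and ZT18b (up to 0.074), while the other 4 called genes passed in all 22.

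Markers of other liver cells were set beside these results. The mean level of the stellate list ranged from 7.88 at ZT10 to 8.26 at ZT22, with all 5 measured genes below 0 in the light minus dark comparison and 0 of 5 called. That of the sinusoidal list ranged from 9.60 at ZT14 to 10.31 at ZT22, with all 6 genes below 0 in the light minus dark comparison, 0 of 6 called there and Stab2 called in the 24 h test (adjusted p = 0.0353). Among 6 Kupffer cell markers Cd5l was higher in the light by 0.71 (limma adjusted p = 0.0194) and passed the 24 h test (0.036). The others were called in neither test, with differences from -0.01 for Vsig4 to 0.37 for Clec4f. Of 5 cholangiocyte and 4 adipocyte markers 0 were called in either test. Lymphocyte and neutrophil markers were dim, with 0 of 6 and 0 of 3 above the median level. Of these Cd79b (mean level 3.79) was called higher in the light by 0.48 (adjusted p = 0.032) and S100a9 (5.09) by 0.58 (0.0271), and S100a9 also passed the 24 h test (0.0386). Their part in the members' differences was not tested.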

How the data were processed

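Liver RNA (100 ng per sample, per the labels' protocols) was measured on 22 Clariom S arrays. The deposited table gives log2 expression values per feature and array. The range of values was read as log2, and every fold rests on that. The log base and the authors' background correction, normalization, software and genome build were not given in the sources used here. Arrays have no read depth, and their number limits the precision.

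Per the labels 3 to 4 mice were used at a time. Each array was counted as 1 mouse, and p-values reflect only the variation among the arrays. Models were fitted with limma 3.58.1 in R 4.3.3 (lmFit, eBayes) to all 22206 features without a filter, with Benjamini-Hochberg adjustment over all of them. The 24 h rhythm was tested with 1 cosine and 1 sine term, and the other comparisons came from a model of 6 time means. Code was tested on simulated data. Members, lists and tests were chosen with earlier results of these data known.

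Named with values by array were the members called in the 24 h test and the 3 of lowest p called in each other test. Named with their fit were the 3 largest amplitudes not called, the 3 smallest, the 2 members on either side of the threshold, the Mrps18 paralogs, and the 3 genes of lowest p in each related list. Alternatives were quantile normalization, centring, a filter on dim features, a trend and robust prior, array weights, a replicate block, ranks, 12 h terms, an unmoderated F test, a threshold of 0.01, and leaving out the Tff3-high arrays, each array or each time.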

Additional observations from a re-analysis of the deposited data

Results flagged for a closer look

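In 18 measures (named members and the median of all members), a single array far from the other 3 of its time was looked for; 72 groups of 4 arrays were tested and 3 stood out, where chance gives about 1 in 20 groups. Mrpl15 read 8.94 in ZT10c, against 9.27 to 9.33 in the other 3 arrays of ZT10; ZT10c is also the array with the lowest median of all members. Mrps27 read 8.74 in ZT2c, against 8.07 to 8.14 in the others of ZT2. It read 7.72 in ZT14b, a Tff3-high array, against 8.32 to 8.41 in the others of ZT14. In groups of 3 arrays (ZT6 and ZT18) this was not examined.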

How the results depend on the processing

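Members called in the main analysis were 5 in the 24 h test, 2 for any difference among times, 5 for light against dark, 2 for ZT2 against ZT14, 0 for ZT6 against ZT18 and 2 for ZT10 against ZT22. The median light minus dark difference of the members was below 0 under each alternative run (-0.14 to -0.08), but single members turned: 63 of 76 kept their sign without the Tff3-high arrays. With the 11103 features above the median level the counts were 10, 7, 12 (10 higher in the dark, 2 in the light), 3, 1 and 4 of 74 members, where 18.7%, 16.2%, 13.3%, 11%, 3.76% and 8.82% of features were called. A trend and robust prior gave 5 for any difference (7.38% of all features) and 1 for ZT6 against ZT18 (1.37%), array weights 4 for any difference (8.77%) and 2 higher in the light, centring 1 for any difference (6.03%), quantile normalization 1 for ZT10 against ZT22 (3.39%). Without the 5 Tff3-high arrays the counts were 1, 0, 0, 0, 0 and 0, against 5.88%, 4.58%, 2.78%, 2.31%, 0.266% and 3.47% of all features, with 5 fewer arrays. At an unadjusted p under 0.05 these fits gave 18, 12, 16, 4, 11 and 10 members. The shares of all features at that level were not counted. At a threshold of 0.01 the counts with all arrays were 1, 0, 1, 0, 0 and 0, against 3.74%, 3.01%, 2.07%, 2.12%, 0.365% and 1.64%. Ranks gave 2 rhythmic members (4.80% of all features), and leaving out ZT10, ZT18 or ZT22 gave 3, 2 and 3 (5.16%, 5.86% and 5.17%). Where no value above shows it, the cause was not tested.

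With each array left out in turn the ranges were 3 (without ZT10c) to 7 (without ZT6c) for the 24 h test, 0 (without ZT18b) to 3 (without ZT2d) for any difference, 3 (without ZT2d) to 11 (without ZT14a) for light against dark, 0 (without ZT2b) to 3 (without ZT6b) for ZT2 against ZT14, 0 to 0 for ZT6 against ZT18, and 0 (without ZT10c) to 3 (without ZT2d) for ZT10 against ZT22. Members higher in the dark numbered 3 to 9 and in the light 0 to 2. Members with a dark peak numbered 55 to 60. The calls over all features moved too in these fits, so the member ranges alone do not set the members apart. They numbered 1464 to 1691 for the 24 h test, 1078 to 1579 for any difference and 825 to 1427 for light against dark. In the ZT2, ZT6 and ZT10 comparisons they numbered 589 to 1018, 82 to 440 and 532 to 796. Features higher in the dark numbered 510 to 882 and in the light 313 to 545. Features with a dark peak numbered 10495 to 10792.

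The letters of the arrays did not pair them: the mean correlation of deviations was -0.01 over 51 pairs of the same letter (lowest -0.24) and 0 between other letters. With the letter as a replicate block 4 members were rhythmic, 2 differed among times, 3 differed between light and dark (0 higher in the light), and 2, 0 and 1 in the ZT2, ZT6 and ZT10 comparisons, against 6.88%, 5.26%, 4.81%, 3.95%, 0.905% and 3.05% of all features.

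With 3 to 4 arrays per time and a median SD between them of 0.28, above the median fitted amplitude of 0.16, a member that was not called may still change through the day.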
